A study of Mus musculus with 11 samples.

Results

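The 10 genes followed here act as transcription factors, or as inhibitors of transcription factors, in quiescent and central regulatory T cells (Tregs), and they were measured in Tregs sorted from tumors and spleens of tumor-bearing mice: Tcf7, Lef1, Klf2, Klf3, Foxo1, Foxp1, Bach2, Satb1, Id3 and Id2. They were taken by gene symbol from the deposited expression table. All 10 were found among its 14604 genes, and all 10 passed the filter on low values that left 13897 genes for testing. The RNA came from mice bearing tumors of MC38, a mouse colon adenocarcinoma line. WT mice had the genotype CD177flox/flox, and KO mice had CD177flox/flox/FOXP3-CreYFP, in which a Cre recombinase driven by Foxp3 removes Cd177 from Tregs. Both genotypes therefore carried the floxed allele, the label of the WT mice names no Cre, and an effect of Cre or YFP itself cannot be told apart from the loss of Cd177. The 11 libraries were 3 spleen WT, 3 spleen KO, 3 tumor WT and 2 tumor KO, each from live CD4+ GITR+ CD25+ sorted cells, and the spleens came from the same mice as the tumors. The methods give an age for C57BL/6 mice implanted with MC38 but do not tie it to these genotypes, and the purity of the sort is not given in the sources used here. Cd177 is not listed in the table, and the genotypes could therefore not be checked on the deleted gene itself.

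Values are log2(n + 1), where n is the authors' estimated count of a gene after their scaling. How n was scaled is not known. The methods give an approximate read depth per library, but the number of reads behind a value is not known. Precision was therefore judged from the spread between libraries alone. The sums of n per library ran from 712832 to 844331 in spleen and from 1103159 to 1304548 in tumor. The Treg label was checked against Foxp3, the lineage factor of Tregs, which had a mean log2(n + 1) of 6.35 ± 0.30 over the spleen libraries (SD, n = 6) and 5.50 ± 0.55 over the tumor libraries (SD, n = 5). Foxp3 fell by 0.85 (SE 0.22) in tumor, and relative to the T-cell genes Cd3e and Cd4 its difference of -0.33 did not pass the test. The tumor libraries also held RNA of other cells. All 18 macrophage and monocyte markers tested were higher there (adjusted p below 0.05, limma with Benjamini-Hochberg adjustment), and the log2 of their summed n was 14.34 to 14.82 in tumor and 8.85 to 9.89 in spleen. In such bulk samples fewer cells of a type and less RNA per cell cannot be told apart. For that reason each gene is also given relative to the mean of Cd3e, a chain of the CD3 complex of T cells, and Cd4 in the same library.

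Naive and central T cells, Tregs among them, are held in a resting and recirculating state by a set of transcription factors. TCF-1 (Tcf7) and LEF-1 bind the same DNA sites and recruit either beta-catenin or repressors of the TLE family. FOXO1 stays in the nucleus until AKT phosphorylates it, and it activates Klf2, whose product in turn keeps genes of T-cell trafficking such as S1pr1 on. FOXP1 helps to hold naive T cells quiescent, BACH2 represses genes of effector differentiation such as Prdm1, and SATB1 organizes chromatin in thymocytes and T cells. ID2 and ID3 bind E proteins and keep them off DNA, and they mark different T-cell states, with ID2 known from effector cells and ID3 from less differentiated ones.

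The sequences upstream of the first start in RefSeq are shown for Lef1, one of the genes with the largest fall in tumor. They are also shown for Foxo1 and Klf2, a factor and its known target that moved by different amounts. All are RefSeq windows on build GRCm38.p6, cut where they met an annotated exon. The Lef1 window was not cut, and it ends at 131110296, before the GENCODE start of the gene at 131110471. Capitals mark CpG dinucleotides, which are the sites of DNA methylation.
Lef1, chr3:131110047-131110296, plus strand: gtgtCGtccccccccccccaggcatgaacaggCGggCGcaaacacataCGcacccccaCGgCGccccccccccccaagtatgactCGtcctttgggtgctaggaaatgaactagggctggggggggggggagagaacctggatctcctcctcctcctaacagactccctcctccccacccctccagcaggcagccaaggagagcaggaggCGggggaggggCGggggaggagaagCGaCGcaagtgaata
Foxo1, chr3:52268087-52268335, plus strand: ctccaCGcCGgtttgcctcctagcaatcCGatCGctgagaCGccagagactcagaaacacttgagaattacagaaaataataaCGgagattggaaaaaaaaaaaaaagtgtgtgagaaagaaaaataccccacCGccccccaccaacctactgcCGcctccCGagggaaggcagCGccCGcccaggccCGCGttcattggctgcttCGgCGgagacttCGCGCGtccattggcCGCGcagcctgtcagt
Klf2, chr8:72318812-72319032, plus strand: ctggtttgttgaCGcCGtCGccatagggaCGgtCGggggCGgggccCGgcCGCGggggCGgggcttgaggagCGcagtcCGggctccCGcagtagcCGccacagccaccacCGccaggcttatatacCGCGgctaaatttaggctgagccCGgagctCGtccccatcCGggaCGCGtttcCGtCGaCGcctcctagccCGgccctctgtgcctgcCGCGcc
The Lef1 sequence held 11 CpG in 250 bases, the Foxo1 sequence 20 in 249 bases and the Klf2 sequence 28 in 221 bases. The median over all 32851 RefSeq windows of 250 bases was 6, so each of these stretches held more CpG than the median window. Searches on both strands of the 20 windows of the 10 genes for GTAAACA, a FOXO motif, and CTTTGAT, a TCF/LEF motif, had no match, and these letters occur in 3.17% and 3.21% of all windows. The TCF/LEF motif CTTTGAA, found in 4.46% of all windows, occurred in a Foxp1 window, and the E-box CACCTG, found in 17.2% of all windows, occurred in windows of Foxp1 and Satb1. TGACTCA, the AP-1 site that is also part of the site BACH2 binds, had no match in the windows of the 10 genes and occurs in 4.46% of all windows.

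Of the 10 genes, 9 were lower in tumor-infiltrating Tregs (TI-Tregs) than in spleen Tregs and 1, Id2, was higher. All 10 passed the test at an adjusted p below 0.05 (limma with Benjamini-Hochberg adjustment), against 78.9% of all genes tested, of which 35.9% were lower and 43.1% higher. A change in itself was thus common. Among all called genes 54.5% were higher in tumor as deposited and 29.6% when library totals were set equal, and the 10 genes kept their direction and passed the test under both. Falls of at least 2 on the log2 scale were seen in 4 of the 10 (Tcf7, Bach2, Lef1 and Foxp1) and in 1.73% of all genes tested, and a rise of at least 2 in Id2 and in 8.24% of all genes tested. The median difference over the 10 was -1.75, beside 0.082 over all genes tested. For each of the 10 genes, every tumor library lay on one side of every spleen library, which held for 63.5% of all genes tested, with the tumor libraries higher in 35.2% and lower in 28.4%. The exact two-sided permutation test over libraries gave p = 0.0043 for each, the smallest value that 6 against 5 libraries allow.

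**Figure D1:**
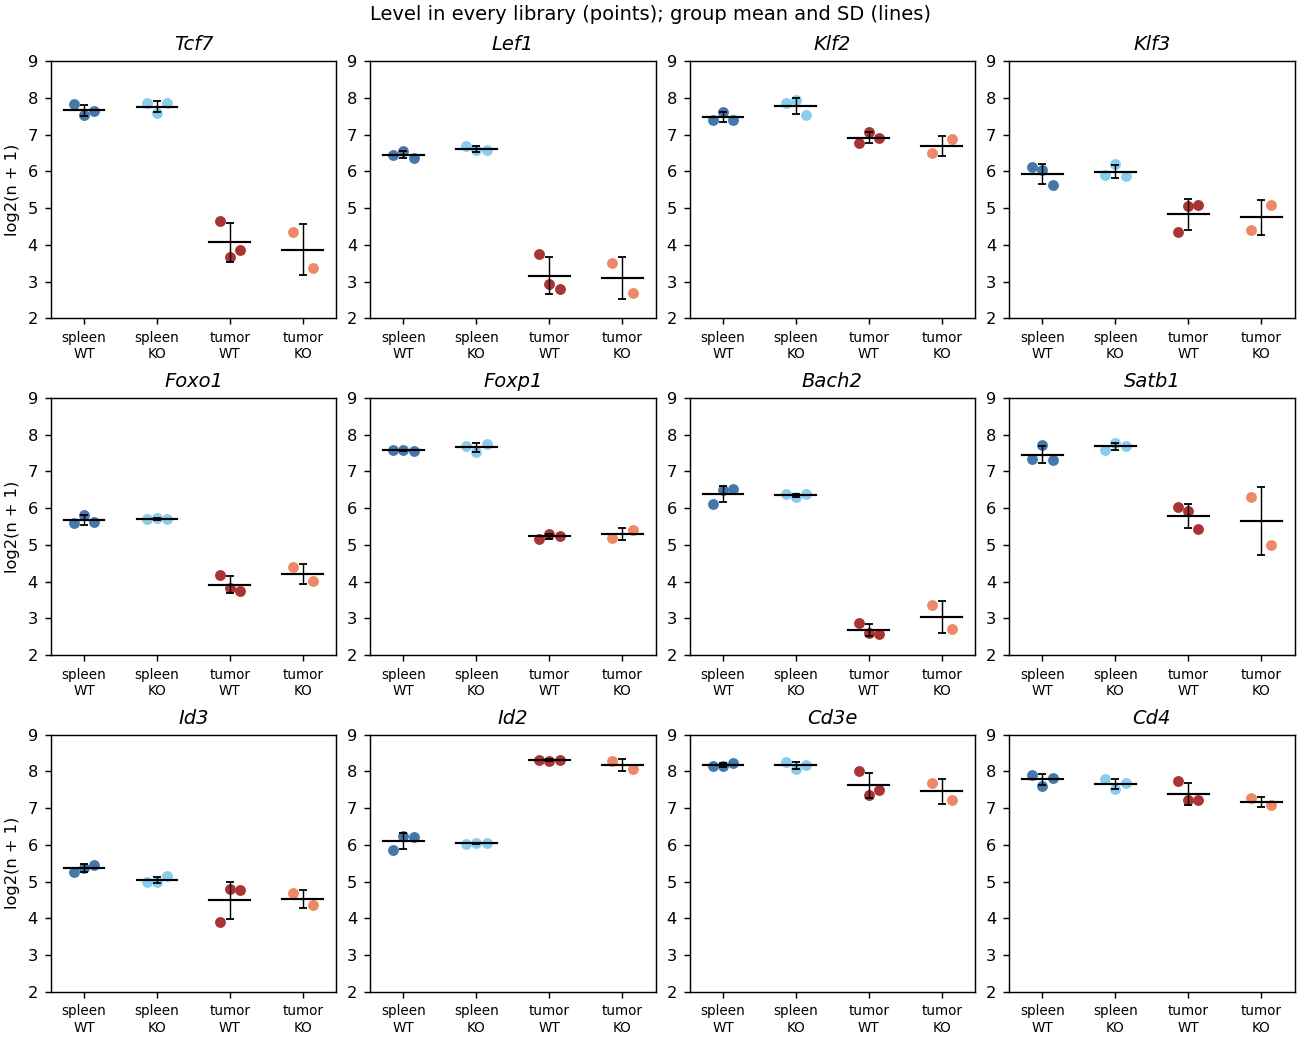
Level of each of the 10 genes and of Cd3e and Cd4, on the log2(n + 1) scale, in the 11 libraries, by tissue and genotype. Each point is a library, the wide line is the mean of a group and the bar its SD (n = 3, or 2 for tumor KO); Tcf7 fell from between 7.53 and 7.85 in spleen to between 3.37 and 4.66 in tumor, and Id2 rose from between 5.85 and 6.24 to between 8.06 and 8.32.

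Tcf7 and Lef1, the related HMG-box factors of naive and stem-like T cells, were among the genes with the largest falls. Tcf7 (chromosome 11, 52252371 to 52283014, minus strand, GRCm38) was at 7.82, 7.53 and 7.64 in spleen WT, 7.85, 7.58 and 7.85 in spleen KO, 4.66, 3.68 and 3.86 in tumor WT, and 4.36 and 3.37 in tumor KO libraries. Lef1 (chromosome 3, 131110471 to 131224356, plus strand) was at 6.45, 6.56 and 6.36 in spleen WT, 6.70, 6.57 and 6.57 in spleen KO, 3.74, 2.94 and 2.81 in tumor WT, and 3.51 and 2.69 in tumor KO libraries. The spleen libraries lay close together for both genes, the tumor libraries were spread more widely, and no tumor library came near the spleen range. Tcf7 fell by 3.72 on the log2 scale (SE 0.19, adjusted p = 1.9e-09, limma with Benjamini-Hochberg adjustment), which is 13.2-fold and the 14th largest fall of all genes tested. Lef1 fell by 3.40 (SE 0.17, adjusted p = 1.6e-09, limma with Benjamini-Hochberg adjustment), which is 10.5-fold and the 22nd largest fall. Their relative Tcf7l2, a factor expressed in many tissues, moved the other way, with a difference of 2.03 (SE 0.19), while Tcf7l1, at a low level, had a difference of 0.28 that did not pass the test. Axin2, a target gene of beta-catenin and TCF/LEF factors, fell by 2.34 (SE 0.16).

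Bach2 and Satb1 fell as well, by unequal amounts. Bach2 (chromosome 4, 32238804 to 32586108, plus strand) was at 6.12, 6.49 and 6.52 in spleen WT, 6.37, 6.29 and 6.37 in spleen KO, 2.88, 2.61 and 2.58 in tumor WT, and 3.35 and 2.72 in tumor KO libraries. The gap between the lowest spleen and the highest tumor library was wide compared with the spread within either tissue. Bach2 fell by 3.53 (SE 0.13, adjusted p = 1.2e-10, limma with Benjamini-Hochberg adjustment), which is 11.6-fold and the 17th largest fall. Its relative Bach1 moved the other way, with a difference of 2.22 (SE 0.13). Prdm1, which encodes BLIMP-1 and is a known target of repression by BACH2, was 2.56 (SE 0.16) higher in tumor on the log2 scale. Myeloid markers were also higher in the tumor libraries, and the part of those cells in the Bach1 and Prdm1 values was not tested.

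Satb1 (chromosome 17, 51736187 to 51833290, minus strand) was at 7.33, 7.71 and 7.32 in spleen WT, 7.58, 7.76 and 7.69 in spleen KO, 6.04, 5.92 and 5.42 in tumor WT, and 6.29 and 4.99 in tumor KO libraries. The tumor KO libraries were the highest and the lowest of the tumor libraries, so the spread in tumor lay within a genotype. Satb1 fell by 1.83 (SE 0.20, adjusted p = 1.9e-06, limma with Benjamini-Hochberg adjustment), which is 3.56-fold.

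The forkhead factors Foxo1 and Foxp1 both fell, Foxp1 by more. Foxo1 (chromosome 3, 52268336 to 52353221, plus strand) was at 5.59, 5.82 and 5.62 in spleen WT, 5.70, 5.72 and 5.69 in spleen KO, 4.17, 3.83 and 3.74 in tumor WT, and 4.39 and 4.01 in tumor KO libraries. Foxp1 (chromosome 6, 98925338 to 99522721, minus strand) was at 7.57, 7.57 and 7.56 in spleen WT, 7.70, 7.52 and 7.75 in spleen KO, 5.16, 5.30 and 5.23 in tumor WT, and 5.18 and 5.40 in tumor KO libraries. The 5 tumor libraries of Foxp1 spanned 0.24 on the log2 scale and the 6 spleen libraries also 0.24. Foxo1 fell by 1.66 (SE 0.11, adjusted p = 1.3e-08, limma with Benjamini-Hochberg adjustment), which is 3.17-fold. Foxp1 fell by 2.36 (SE 0.064, adjusted p = 1.4e-11, limma with Benjamini-Hochberg adjustment), which is 5.13-fold and the 117th largest fall. Their relatives moved less. Foxo4 fell by 0.63 and Foxp4 by 0.94, and Foxo3 had a difference of -0.11 that did not pass the test (adjusted p = 0.17, limma with Benjamini-Hochberg adjustment). Relative to Cd3e and Cd4, Foxo4 was at -0.12 and did not pass the test. Foxp4 stayed lower on that scale, at -0.42, and Foxo3 turned to 0.41 and passed.

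Exons of other annotated genes overlap some of the 10 genes, and whether the counting used strand is not stated. Foxp1 overlaps Gm20696 on the same strand, which is listed with a mean of 4.40 in spleen and 1.39 in tumor, so reads could have been split between them. Foxp1 also overlaps Gm49348, and Satb1 overlaps Gm36931, on the same strand, and neither of these models is listed. Lef1, Klf3, Foxo1, Bach2 and Satb1 overlap gene models on the opposite strand, of which none is listed. No exon of another gene overlaps Tcf7, Klf2, Id3 or Id2.

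The Krüppel-like factors Klf2 and Klf3, which act in T-cell trafficking and in the repression of gene expression, changed less. Klf2 (chromosome 8, 72319033 to 72321656, plus strand) was at 7.40, 7.62 and 7.41 in spleen WT, 7.85, 7.95 and 7.53 in spleen KO, 6.77, 7.07 and 6.92 in tumor WT, and 6.50 and 6.89 in tumor KO libraries. Klf3 (chromosome 5, 64803388 to 64832901, plus strand) was at 6.11, 6.04 and 5.62 in spleen WT, 5.91, 6.19 and 5.86 in spleen KO, 4.34, 5.06 and 5.08 in tumor WT, and 4.41 and 5.08 in tumor KO libraries. The tissues did not overlap for either gene, and for Klf3 tumor WT replicate 1 and tumor KO replicate 1 lay below the other tumor libraries. Klf2 fell by 0.80 (SE 0.12, adjusted p = 4.8e-05, limma with Benjamini-Hochberg adjustment), which is 1.74-fold. Klf3 fell by 1.16 (SE 0.16, adjusted p = 1.9e-05, limma with Benjamini-Hochberg adjustment), which is 2.24-fold. Other family members rose, among them Klf4 with a difference of 3.27 (SE 0.31), Klf10 with 2.02 (SE 0.095) and Klf6 with 1.29 (SE 0.17). Klf13 fell by 0.66, and Klf7 had a difference of -0.0063 that did not pass the test. Relative to Cd3e and Cd4, Klf13 was at -0.14 and did not pass, and Klf7 was at 0.51 and passed. Klf4 and Klf6 are also expressed by macrophages, whose markers were higher in the tumor libraries, and the part of those cells in these values was not tested.

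Id2 and Id3 moved in opposite directions. Id2 (chromosome 12, 25093799 to 25097140, minus strand) was at 5.85, 6.24 and 6.21 in spleen WT, 6.02, 6.05 and 6.05 in spleen KO, 8.32, 8.27 and 8.30 in tumor WT, and 8.29 and 8.06 in tumor KO libraries. Id3 (chromosome 4, 136143497 to 136145755, plus strand) was at 5.25, 5.38 and 5.46 in spleen WT, 5.0, 4.98 and 5.14 in spleen KO, 3.91, 4.80 and 4.76 in tumor WT, and 4.69 and 4.36 in tumor KO libraries. The highest tumor library for Id3 lay close under the lowest spleen library. Id2 was 2.18 (SE 0.077, adjusted p = 9.0e-11, limma with Benjamini-Hochberg adjustment) higher in tumor on the log2 scale, which is 4.53-fold. Id3 fell by 0.70 (SE 0.16, adjusted p = 0.0011, limma with Benjamini-Hochberg adjustment), which is 1.62-fold and the smallest change of the 10. Id1, a relative better known outside T cells, rose by 1.91 (SE 0.14) from a low level. Of the 3 E proteins that ID proteins bind, Tcf12 fell by 0.84 and Tcf3 by 0.27, and Tcf4 rose by 2.37 (SE 0.19). The part of other cells in the Tcf4 difference was not tested. Relative to Cd3e and Cd4, Tcf3 turned to a difference of 0.25 and neither Tcf3 nor Tcf12 passed the test.

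The T-cell genes themselves were lower in the tumor libraries, so each of the 10 was set against them. Cd3e was at 8.15, 8.14 and 8.22 in spleen WT, 8.26, 8.07 and 8.16 in spleen KO, 8.0, 7.36 and 7.49 in tumor WT, and 7.69 and 7.22 in tumor KO libraries. Cd4 was at 7.91, 7.60 and 7.82 in spleen WT, 7.78, 7.52 and 7.67 in spleen KO, 7.73, 7.21 and 7.23 in tumor WT, and 7.26 and 7.07 in tumor KO libraries. Tumor WT replicate 1 was the highest tumor library for both genes and reached the spleen range for Cd4. Cd3e fell by 0.62 (SE 0.11) and Cd4 by 0.42 (SE 0.11). The log2 of the summed n of 12 genes of T cells at large was 11.13 to 11.23 in spleen and 10.17 to 10.91 in tumor. Of these 12 genes, 10 were lower, none was higher and 2 did not pass the test, with a median difference of -0.71.

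Relative to the mean of Cd3e and Cd4, 7 of the 10 genes stayed lower and Id2 stayed higher at an adjusted p below 0.05, against 73% of all genes tested, of which 14.4% were lower and 58.6% higher. Tcf7 lay at -0.38 to -0.067 in the 6 spleen libraries with a median of -0.22, and at -3.20, -3.61, -3.50, -3.11 and -3.77 in the tumor libraries, the last pair being KO. In spleen the Tcf7 level was thus close to the mean of Cd3e and Cd4, and in tumor it was more than 3 below it on this log2 scale. Relative to Cd3e and Cd4, Tcf7 fell by 3.21 (SE 0.14), Bach2 by 3.01 (SE 0.16) and Lef1 by 2.88 (SE 0.14). Foxp1 fell by 1.84 (SE 0.15), Satb1 by 1.31 (SE 0.18) and Foxo1 by 1.14 (SE 0.15). The tissues did not overlap for these 6, with p = 0.0043 in the exact two-sided permutation test. The share of all genes tested whose tissues did not overlap was counted as deposited, at 63.5%, and not on this scale. Of the 12 T-cell genes, which include Cd3e and Cd4, 5 were also lower on this scale. Another 2 were higher and 5 did not pass the test, with a median of -0.19. The largest fall among them, Lat at -1.17 (SE 0.12), was close to those of Foxo1 and Satb1. Id2 lay at -2.18 to -1.63 in spleen with a median of -1.83, and at 0.46, 0.98 and 0.95 in tumor WT and 0.82 and 0.92 in tumor KO libraries. Its difference was 2.70 (SE 0.13), which is 6.48-fold. The median over all genes tested also moved up on this scale, from 0.082 to 0.60. Setting Id2 against T-cell genes does not remove RNA of other cells from its value. The part of those cells in the Id2 difference was not tested.

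Klf2, Klf3 and Id3 stood apart from the other 7 on the relative scale, since their tissues overlapped. Relative to Cd3e and Cd4, Klf3 was at -3.52, -2.22 and -2.28 in tumor WT and -3.07 and -2.07 in tumor KO libraries, beside -2.40 to -1.61 in spleen. Klf3 fell by 0.64 (SE 0.23, adjusted p = 0.018, limma with Benjamini-Hochberg adjustment). This call ended without tumor WT replicate 1 (difference -0.42, adjusted p = 0.051) or without tumor KO replicate 1 (difference -0.54, adjusted p = 0.053). These were the libraries with the highest sums of the 12 T-cell genes, at 10.91 and 10.78, and the lowest sums of the myeloid markers, at 14.34 and 14.48, and the part of this in the Klf3 values was not tested. Klf2 had a relative difference of -0.28 (SE 0.18, adjusted p = 0.18, limma with Benjamini-Hochberg adjustment). Its tumor libraries at -1.09, -0.22, -0.44, -0.97 and -0.25 spanned the spleen range of -0.63 to 0.15 in part. Id3 had a relative difference of -0.18 (SE 0.21, adjusted p = 0.45, limma with Benjamini-Hochberg adjustment), which turned to 0.077 without tumor WT replicate 1.

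**Figure D2:**
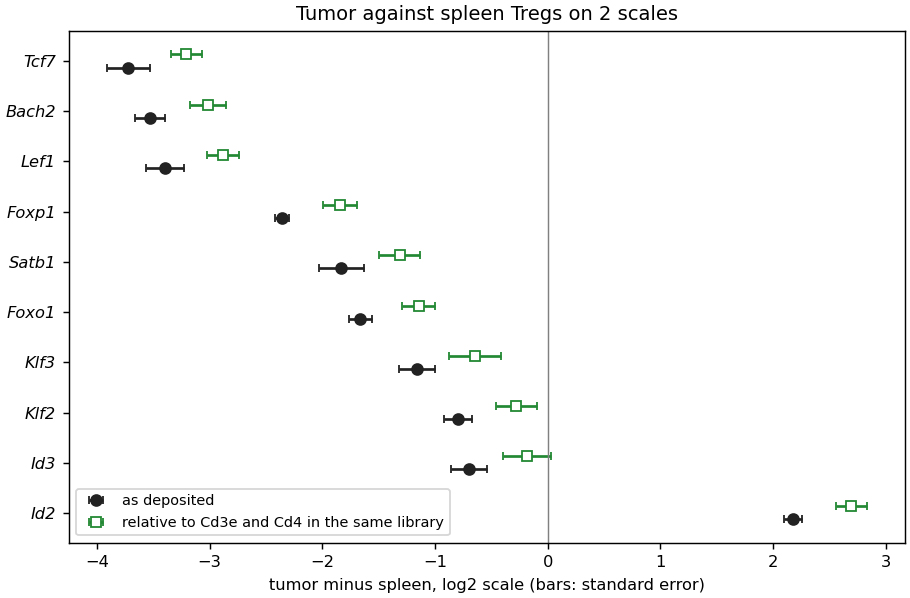
Tumor minus spleen difference of each of the 10 genes on the log2 scale, as deposited and relative to the mean of Cd3e and Cd4 in the same library, with bars of 1 standard error from limma (6 spleen and 5 tumor libraries). Falls ran to -3.72 as deposited and -3.21 relative to the T-cell genes for Tcf7, whereas the relative differences of Klf2 (-0.28) and Id3 (-0.18) lay near 0.

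Markers of further cell types were measured beside these values. The log2 of the summed n of the 6 fibroblast markers tested was 9.03 to 10.18 in tumor and 1.55 to 1.94 in spleen, and all 6 were higher in tumor. Of 10 markers of CD8+ T and NK cells, 6 were higher and 1 was lower, with sums of 7.24 to 8.98 in tumor and 5.63 to 6.64 in spleen. Of 8 dendritic cell markers, 5 were higher and 1 was lower, with sums of 4.48 to 5.17 in tumor and 4.05 to 4.86 in spleen. The 6 B-cell markers tested gave 1 higher and 4 lower, with sums of 2.97 to 4.29 in tumor and 3.76 to 5.84 in spleen. Of 5 endothelial markers, 2 were higher and 2 were lower, with sums of 4.77 to 5.20 in tumor and 6.25 to 6.50 in spleen. Each listed marker was above 0 in every library, but so were all 14604 genes listed. The part of these cells in the differences of the 10 genes was not tested.

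The tumor libraries differed among themselves, and more for some of the 10 genes than for others. Tcf7 spanned 1.29 on the log2 scale over the 5 tumor libraries and 0.31 over the 6 spleen libraries, and Satb1 spanned 1.3 and 0.45. Tcf7 was highest in tumor WT replicate 1, followed by KO replicate 1, WT replicate 3, WT replicate 2 and KO replicate 2, which is the order of the summed T-cell genes at 10.91, 10.78, 10.36, 10.25 and 10.17. Relative to Cd3e and Cd4, the span of Tcf7 in tumor narrowed to 0.66 and that of Lef1 to 0.59. Klf3 and Id3 went the other way. Both were lowest in tumor WT replicate 1, and their spans in tumor widened from 0.74 to 1.46 for Klf3 and from 0.89 to 1.47 for Id3 on the relative scale. Foxp1, which spanned 0.24 as deposited, spanned 0.96 relative to the T-cell genes, so dividing by the T-cell genes did not narrow the spread of every gene.

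**Figure D3:**
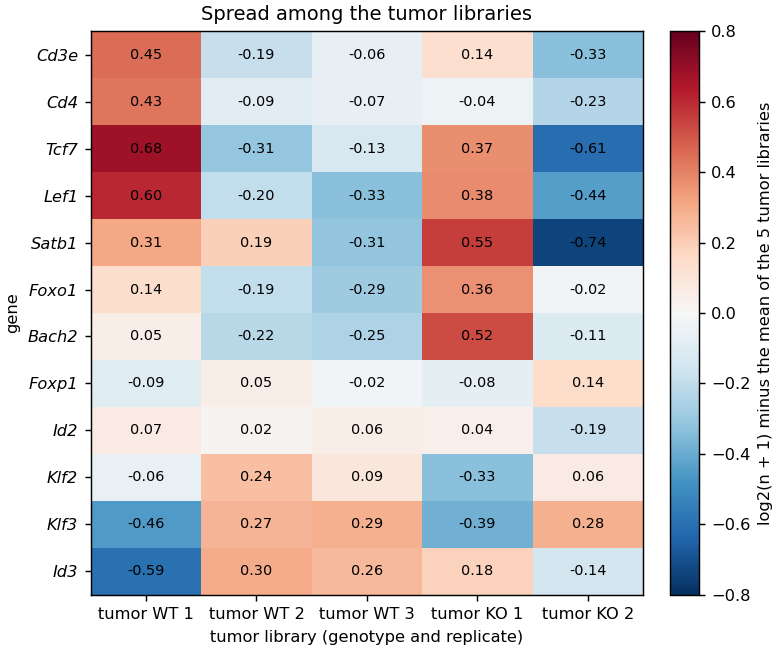
Deviation of each tumor library from the mean of the 5 tumor libraries, on the log2 scale, for the 10 genes and for Cd3e and Cd4, as colored cells with red above and blue below the mean. Tumor WT replicate 1 lies 0.68 above the mean for Tcf7 and 0.60 above it for Lef1, and 0.46 below it for Klf3.

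The comparison of genotypes asks whether loss of Cd177 in Tregs went with a change in these genes. Within WT mice, all 10 genes differed between tissues at an adjusted p below 0.05, against 70.5% of all genes tested (39.2% higher and 31.3% lower), and the differences ran from -3.69 for Bach2 to 2.20 for Id2. Within KO mice, 9 of the 10 differed, against 65.7% of all genes tested (36.2% higher and 29.5% lower), and they ran from -3.89 for Tcf7 to 2.14 for Id2. The exception was Id3, with a difference of -0.52 (SE 0.23, adjusted p = 0.071, limma with Benjamini-Hochberg adjustment), beside -0.87 (SE 0.21) in WT mice. The spread in these tests was estimated from all 11 libraries together. Without tumor WT replicate 1 the Id3 difference within KO mice passed the test (adjusted p = 0.0032). A fit of the KO libraries alone gave -0.52 for Id3 (SE 0.14, adjusted p = 0.014, limma with Benjamini-Hochberg adjustment). The difference between the genotypes in the Id3 effect was itself tested and was 0.36 (SE 0.31, unadjusted p = 0.28 from limma).

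None of the 10 genes differed in its tissue effect between genotypes at an adjusted p below 0.05, against 0% of all genes tested (limma with Benjamini-Hochberg adjustment). Klf2 was the member with an unadjusted p under 0.05 in that test, beside 383 of all genes tested. Its difference between tumor and spleen was -0.55 (SE 0.14) in WT and -1.08 (SE 0.16) in KO mice, so that the difference of the differences was -0.53 (SE 0.21, unadjusted p = 0.030, adjusted p = 0.9997, limma with Benjamini-Hochberg adjustment). The libraries behind it lay higher in spleen KO than in spleen WT, with 1 WT library at 7.62 above the lowest KO library at 7.53.

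Between KO and WT spleen Tregs, no member passed the test, against 0% of all genes, and 281 genes but no member had an unadjusted p under 0.05 (limma with Benjamini-Hochberg adjustment). The differences ran from -0.32 (SE 0.21) for Id3 to 0.30 (SE 0.14) for Klf2. The 3 KO libraries of Id3, at 4.98 to 5.14, lay below the 3 WT libraries, at 5.25 to 5.46. Such a gap in this direction was seen in 4.32% of all genes tested. Between KO and WT TI-Tregs, no member passed the test, against 0.0072% of all genes, which is 1 gene. The differences there ran from -0.22 (SE 0.16) for Klf2 to 0.34 (SE 0.19) for Bach2, and 634 genes but no member had an unadjusted p under 0.05 (limma with Benjamini-Hochberg adjustment). Changes of the size of these standard errors were not detectable with 3 or 2 libraries in a group.

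**Figure D4:**
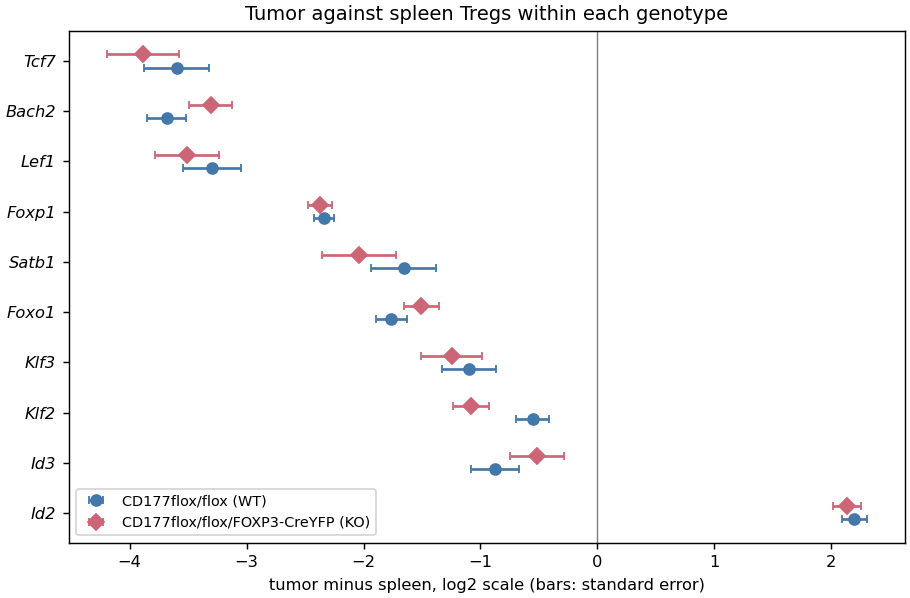
Tumor minus spleen difference of each of the 10 genes on the log2 scale within WT mice (3 spleen and 3 tumor libraries) and within KO mice (3 spleen and 2 tumor libraries). Bars are 1 standard error from limma, with the spread estimated from all 11 libraries together. The values of both genotypes lie side by side for Foxp1 (-2.34 and -2.37) and are furthest apart for Klf2 (-0.55 and -1.08).

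The wider families and pathways of the 10 genes moved less evenly. Of 15 relatives of the 10 genes that were tested, 9 were higher and 3 lower in tumor as deposited, or 7 and 5 with equal library totals, with a median difference of 0.73, beside 0.082 over all genes tested. The 3 that fell as deposited were Foxp4, Klf13 and Foxo4, and the largest rises were Klf4 and Bach1. Relative to Cd3e and Cd4, 12 of the 15 were higher and 1 lower, with a median of 1.25 beside 0.60 over all genes tested. Of 10 cofactors of TCF-1 and LEF-1, 4 were higher and 4 lower as deposited, with a median of -0.087. On the scale relative to Cd3e and Cd4, 7 were higher and 1 lower with a median of 0.43. With equal library totals 2 were higher and 6 lower with a median of -0.70. The median over all genes tested was 0.082 as deposited, 0.60 relative to Cd3e and Cd4 and -0.44 with equal library totals. The split of this list thus moved with the scale, as all genes did. The largest rises there were Ctnnbip1, an inhibitor of beta-catenin, at 2.45 (SE 0.13) and Ctnnb1, beta-catenin itself, at 1.06 (SE 0.082). Beside Axin2, the largest fall was Tle4, a corepressor, at -0.55 (SE 0.069), and relative to Cd3e and Cd4 its difference was -0.033. Of 10 cofactors of KLF3, BACH2 and SATB1, 7 were higher and 2 lower as deposited and 8 and 1 relative to Cd3e and Cd4, but 3 were higher and 5 lower when library totals were set equal. Ctbp2, a corepressor, rose by 2.92 (SE 0.16) and Maff, a small MAF protein, by 2.49 (SE 0.26), while Ncor1, another corepressor, fell by 0.90 (SE 0.073) and Hdac4, a histone deacetylase, by 0.54 (SE 0.13). Ncor1 stayed lower relative to Cd3e and Cd4, at -0.38, and Hdac4, at -0.025, did not pass the test there.

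Known targets of FOXO1 and KLF2 split. Of 11 tested, 6 were lower, 2 higher and 3 did not pass the test as deposited, with a median difference of -0.60. Set against Cd3e and Cd4, 5 were lower and 3 higher with a median of -0.086, and with equal library totals 9 were lower and 1 higher with a median of -1.23. S1pr1, the receptor for egress from lymphoid organs, fell by 2.59 (SE 0.23), and stayed lower relative to Cd3e and Cd4, at -2.07. Pik3ip1, an inhibitor of PI3K, fell by 2.79 (SE 0.17). Ccr7, a chemokine receptor of central T cells and of mature dendritic cells, was 0.38 (SE 0.13) higher as deposited and 0.90 higher relative to Cd3e and Cd4, and its difference turned to -0.24 with equal library totals and to -0.10 after quantile normalization. Il7r, the receptor for IL-7, had a difference of -0.031 (SE 0.20, adjusted p = 0.89, limma with Benjamini-Hochberg adjustment). Irs2, an adaptor of insulin signaling, rose by 1.21 (SE 0.17).

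Among 10 regulators of FOXO1 in the PI3K and AKT pathway, 3 were higher and 6 lower, with a median of -0.31. Sgk1, a kinase that phosphorylates FOXO factors, rose by 2.68 (SE 0.12) and Akt1 by 1.0 (SE 0.089), whereas Pik3cd, the PI3K subunit of leukocytes, fell by 1.24 (SE 0.11) and Rictor, a subunit of mTORC2, by 0.71 (SE 0.063). Pik3cd stayed lower relative to Cd3e and Cd4, at -0.72, and Rictor, at -0.19, did not pass the test there. Relative to Cd3e and Cd4, 4 were higher and 1 lower with a median of 0.21. The median over all genes tested moved as well, from 0.082 as deposited to 0.60 on that scale. The median of this list thus changed direction with the scale but lay below that of all genes on both. Of 14 other genes of T-cell quiescence, 7 were higher and 5 lower as deposited with a median of 0.21, and 8 and 2 relative to Cd3e and Cd4, but 2 were higher and 9 lower with equal library totals. Ripor2, an inhibitor of the GTPase RhoA, fell by 3.73 (SE 0.16) and Peli1, a ubiquitin ligase that restrains T-cell activation, by 0.96 (SE 0.11), while Foxj1, a forkhead factor, rose by 1.05 (SE 0.10) from a low level and Zfp36l1, an RNA-binding protein, by 1.04 (SE 0.061). In contrast to the 10 genes, 9 of 13 factors of effector Tregs were higher and 3 lower as deposited, with a median of 1.41. Of all genes tested, 43.1% were higher and 35.9% lower, with a median of 0.082. Set against Cd3e and Cd4, 10 of the 13 were higher and 1 lower, with a median of 1.93. With equal library totals 8 were higher and 3 lower, with a median of 0.79. The medians over all genes tested on these scales were 0.60 and -0.44. Zeb2, a zinc-finger repressor, rose by 4.06 (SE 0.21) and Nfil3 by 3.54 (SE 0.18), and both are also expressed by myeloid cells. The largest falls of that list were Ikzf2, which encodes Helios, at -1.09 (SE 0.17) and Ikzf4, which encodes Eos, at -0.67 (SE 0.19). Ikzf2 stayed lower relative to Cd3e and Cd4, at -0.57, and Ikzf4, at -0.16, did not pass the test there. The myeloid markers moved with these lists as with the 10 genes, and their part was not tested.

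**Figure D5:**
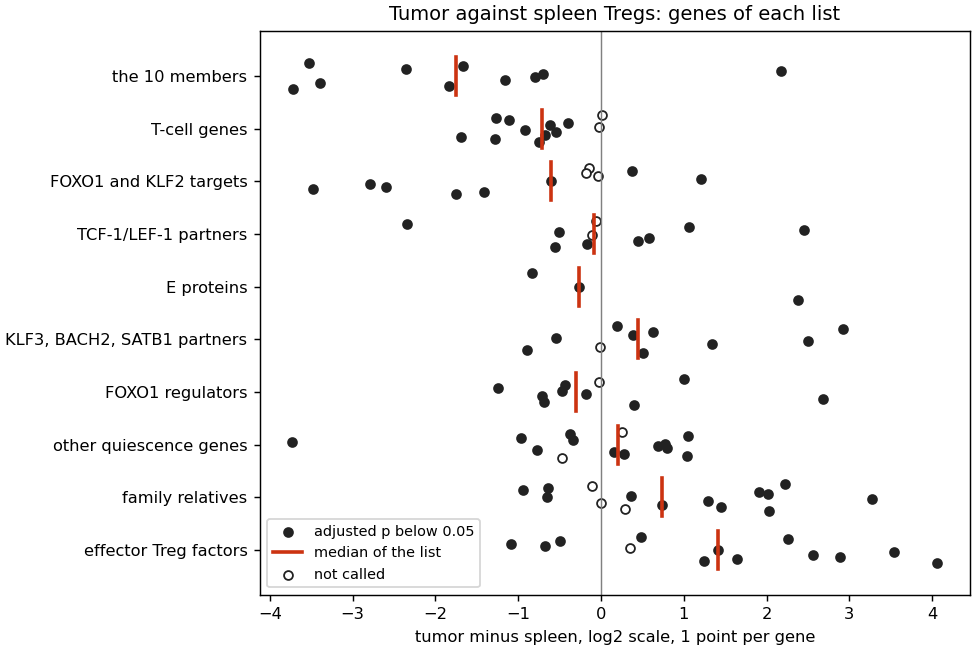
Tumor minus spleen difference, on the log2 scale as deposited, of each tested gene of the 10 genes and of the related lists, with a point for each gene, filled where its adjusted p was below 0.05, and a bar at the median. The median is -1.75 for the 10 genes, 0.73 for their relatives, -0.60 for the FOXO1 and KLF2 targets and 1.41 for the effector Treg factors.

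The genes whose profiles over the 11 libraries lay closest to those with the largest fall and the largest rise were found by the root-mean-square distance between profiles, each centred on its own mean. For Tcf7 these were Ripor2 at a distance of 0.14 on the log2 scale, Aff3 at 0.20 and Lef1 at 0.21, which fell by 3.73, 3.99 and 3.40. Lef1 was thus the third nearest of all genes tested to Tcf7. For Id2 they were Rnh1 at 0.15, Icos at 0.16 and Syngr2 at 0.16, with differences of 2.30, 2.21 and 2.11. Icos encodes a costimulatory receptor of activated T cells. These distances are descriptions over spleen and tumor libraries together, which differed in tissue and in their sums of n.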

How the data were processed

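RNA of sorted Tregs was measured in 11 libraries, and the labels gave the tissue and genotype of each. Per the methods, ribosomal RNA was depleted and kallisto assigned the reads (single-end) to mm10 transcripts. The authors then used sleuth 0.30.0, aggregated the estimates by gene symbol and deposited log2(n + 1) values, on which all values here rest. No source used here gives the kallisto version or the annotation.

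Genes with a mean of at least 0.5 were kept, which left 13897 and dropped 707. With limma 3.58.1 (R 4.3.3, eBayes with a trend), a fit compared 5 tumor with 6 spleen libraries. A model with a mean per tissue and genotype gave the comparisons within and between genotypes. It used all 11 libraries with a common estimate of the spread. P-values were adjusted by Benjamini-Hochberg over all genes tested and calls used 0.05. The relative fit first subtracted each library's mean of Cd3e and Cd4 from every gene. A fold is that of n + 1, which understates changes of low genes. Single values were tested by exact two-sided permutation (scipy 1.17.1). Positions are from GENCODE on GRCm38. The fits were tested on simulated data.

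All 10 genes are described. Of each list of more than 3 genes, the 2 largest rises and falls among the called genes are named, with relatives and partners beside their member and S1pr1, Ccr7 and Il7r. Some genes of these lists are not reported here by name. The genes and lists were chosen with earlier results of these data known. Spleens and tumors came from the same mice per the methods, but no source used here says that replicate numbers mark mice or that replicates are separate mice, so p-values measure the spread between these libraries, which may be technical. Other scalings, pseudocounts, filters, references, thresholds and designs, and leaving out each library, were tried as alternatives.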

Additional observations from a re-analysis of the deposited data

Results flagged for a closer look

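Over 44 groups of 5 or 6 libraries, formed by a tissue and a scale for each gene, 2 held a library far from the others by Dixon's criterion. Chance gives about 1 in 20, or 2.2 of 44. Id2 in tumor KO replicate 2 was at 8.06 on the log2(n + 1) scale, below the other tumor libraries at 8.27 to 8.32 and above every spleen library. Id3 relative to Cd3e and Cd4 in tumor WT replicate 1 was at -3.95, below the other tumor libraries at -2.78 to -2.48.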

How the results depend on the processing

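The 10 genes kept their direction between tumor and spleen under all 24 alternatives, and 7 to 10 of them stayed past the threshold. Bonferroni adjustment left 7, without Klf2, Klf3 and Id3, and a minimum log2 difference of 1 left 8, without Klf2 and Id3. Relative to Cd3e and Cd4 the count was 7 or 8 of 10, the gene lost being Klf3, whose difference was -0.28 with array weights (adjusted p = 0.066) and -0.39 with 12 T-cell genes as the reference (adjusted p = 0.16). The relative Id3 difference, which passed no test, reversed to 0.12 with array weights, 0.073 with the 12-gene reference and 0.077 without tumor WT replicate 1, the highest of a range from -0.29 when each library was left out. Within WT mice Bonferroni adjustment left 6 of the 10 genes and within KO mice 6 of 9. The same adjustment left 2449 and 1857 of all 13897 genes tested. Within KO mice Id3 passed under quantile normalization, median centring and equal totals and in a fit of the KO libraries alone. Leaving out each library left 10 genes called each time between tissues and within WT mice, and 7 to 8 relative to Cd3e and Cd4. Over all genes tested the calls then numbered 10614 to 10978, 9093 to 9988 and 9632 to 10934. No alternative called a member between genotypes or in the interaction. Over all genes, calls between tissues numbered 10971, 5051 with Bonferroni adjustment and 4556 with a minimum difference of 1, and relative to Cd3e and Cd4 10140, 4443 and 5449. Libraries of the same number did not deviate together (correlations of -0.13 to 0.04 across genes), so libraries were not paired by number, although tumors and spleens came from the same mice. A replicate block by that number left 10 genes called between tissues and 8 relative to Cd3e and Cd4, beside 10512 and 10176 of all genes tested. The median of all genes was 0.082 as deposited and shifted to -0.16 by quantile normalization, to -0.14 by centring on the median and to -0.44 by setting totals equal, and the share higher among called genes went from 54.5% to 42.1%, 43.4% and 29.6%. Where no cause is given it was not tested.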
